A study of Mus musculus with 11 samples.

Results

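Retinoic acid, the active form of vitamin A, was followed here through 9 genes that make it, bind it, sense it and break it down in mouse lung fibroblasts with and without cGAS, the cytosolic DNA sensor. The 9 genes are Aldh1a1, Aldh1a2 and Aldh1a3 (synthesis), Dhrs3 (retinaldehyde reduction), Crabp1 and Crabp2 (cytosolic binding), Rara and Rarb (nuclear receptors) and Cyp26b1 (clearance). They were taken by gene symbol from the 56980 Ensembl genes of the count tables, and each of the 9 passed the filter on low counts. Cyp26b1 was chosen because it had been seen lower in cells without cGAS, so its own difference between the genotypes is a description and carries no test. The other 8 were added because they belong to its pathway.

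Total RNA, depleted of ribosomal RNA, was sequenced from primary lung fibroblasts, connective tissue cells cultured from mouse lungs in serum-containing medium. Each of the 11 libraries came from a different mouse: 3 female and 3 male cGAS knockouts (KO), and 2 female and 3 male wild types (WT). No other allele and no agent is named for either genotype. The knockout allele, strain, age of the mice and passage of the cells are unknown here, and the extraction text speaks of tissue rather than of cultured cells. Female and male libraries carry differently styled names, so sex and preparation cannot be told apart.

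Total counts ran from 27261958 to 48039328 per library, and levels are given as CPM (counts scaled to a common library size, corrected by TMM factors). Cgas ran from 1.61 to 2.26 CPM in the 6 KO libraries and from 5.86 to 9.98 CPM in the 5 WT libraries, with no overlap. Its log2 difference was −1.99 (SE 0.16, edgeR quasi-likelihood test, adjusted p = 0.00102), and it was the single entry of 22298 to pass the threshold of 0.05 between the genotypes. The 10 fibroblast markers, genes such as Col1a1 and Pdgfra summed to 34700 to 53000 CPM, and 18 leukocyte and macrophage markers to 6220 to 14900 CPM. Macrophage transcripts were thus measured beside fibroblast ones in every library. In such bulk samples, fewer cells of a type and less RNA per cell cannot be told apart. WT female 2 stood apart from the other 10 libraries: its median correlation with them was 0.972 against 0.984 to 0.992 for the rest, its share of counts on repeats was 10.2% against 5.31% to 8.1%, and its macrophage markers went in both directions. C1qa was lowest there, at 46.4 CPM against 272 to 578 CPM, and Itgax was highest, at 150 CPM against 6.18 to 36.1 CPM. It is 1 of only 2 WT females, so member values that rest on it are given with and without it.

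Cells obtain retinoic acid in a pair of oxidation steps. Retinol is first turned into retinaldehyde, a step that Dhrs3 reverses, and the Aldh1a enzymes then oxidise retinaldehyde irreversibly to retinoic acid. Crabp proteins carry the acid in the cytosol, the retinoic acid receptors (Rara, Rarb, Rarg) bind DNA with RXR partners and switch genes on when the acid is present, and Cyp26 enzymes hydroxylate it for removal. Rarb, Cyp26 genes and Dhrs3 are themselves known to be induced by retinoic acid, which makes the pathway a feedback loop. In the lung the pathway is known for its part in forming alveoli, where lipid-laden fibroblasts store retinoids.

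The promoters of Rarb and Cyp26b1 are shown because Rarb carries a well-known retinoic acid response element and Cyp26b1 is the gene around which the others were gathered. Promoter windows of 300 bases, 250 before and 50 after an annotated start, were taken from RefSeq (GRCm38.p6) and matched 7 of the 9 members with 13 windows. Both are written 5′ to 3′ on the gene's strand. The Rarb window is chr14:16575427-16575726 and the Cyp26b1 window is chr6:84593761-84594060, both on the minus strand. Capitals mark the DR5 element, a direct repeat of the receptor half-site with 5 bases between the copies.
Rarb: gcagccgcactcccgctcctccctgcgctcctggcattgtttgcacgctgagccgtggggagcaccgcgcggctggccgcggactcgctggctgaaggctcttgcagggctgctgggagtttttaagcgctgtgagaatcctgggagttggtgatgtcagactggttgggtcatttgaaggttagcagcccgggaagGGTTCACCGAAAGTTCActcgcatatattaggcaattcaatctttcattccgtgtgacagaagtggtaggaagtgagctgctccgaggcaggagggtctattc
Cyp26b1: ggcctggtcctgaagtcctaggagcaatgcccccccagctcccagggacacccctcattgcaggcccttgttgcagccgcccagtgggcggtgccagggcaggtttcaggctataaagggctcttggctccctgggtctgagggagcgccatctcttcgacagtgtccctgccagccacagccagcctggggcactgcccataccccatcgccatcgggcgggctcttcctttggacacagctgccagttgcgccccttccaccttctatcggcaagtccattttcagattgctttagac
The DR5 match in Rarb, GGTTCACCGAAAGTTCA, began at −53 from the annotated start. Across all 32851 windows of the same length, searched on both strands, 32 held a DR5 match (0.0974%), 0.268% held the 2-base-spaced form (DR2) and 0.222% the 1-base-spaced form (DR1). Among the 13 windows of members, the Rarb window held the single match of any of these forms. A match describes letters in this window and is not evidence of binding in these cells.

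Per length of exon, Dhrs3 was the most abundant member. Its mean level over the 11 libraries was 101 CPM per kb, and its lowest library (64.2 CPM per kb) lay above the highest library of any other member. Aldh1a2 followed at 14.6 CPM per kb (range 4.09 to 30.7) and Rara at 10.6 (8.71 to 11.8), with overlapping ranges. Aldh1a1 at 4.37 (1.48 to 8.02) and Cyp26b1 at 4.26 CPM per kb (0.589 to 14.7) did not separate from each other. Crabp2 at 1.72, Crabp1 at 1.23, Aldh1a3 at 1.11 and Rarb at 0.967 CPM per kb formed the low end, again with overlapping ranges. Aldh1a2 was thus the synthesis enzyme with the highest mean level per length, ahead of Aldh1a1 and Aldh1a3, and Rara the more abundant of the 2 receptors among the members. Beside the members, Rarg, the other retinoic acid receptor gene, was at 18.5 CPM per kb, its partner Rxra at 23.6 and the fatty acid carrier Fabp5, which can also bind retinoic acid, at 166 CPM per kb. The other clearance genes were near 0: Cyp26a1 did not exceed 0.0417 CPM and Cyp26c1 did not exceed 0.112 CPM in any library, so Cyp26b1 was the only Cyp26 gene to pass the filter on low counts.

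**Figure D1:**
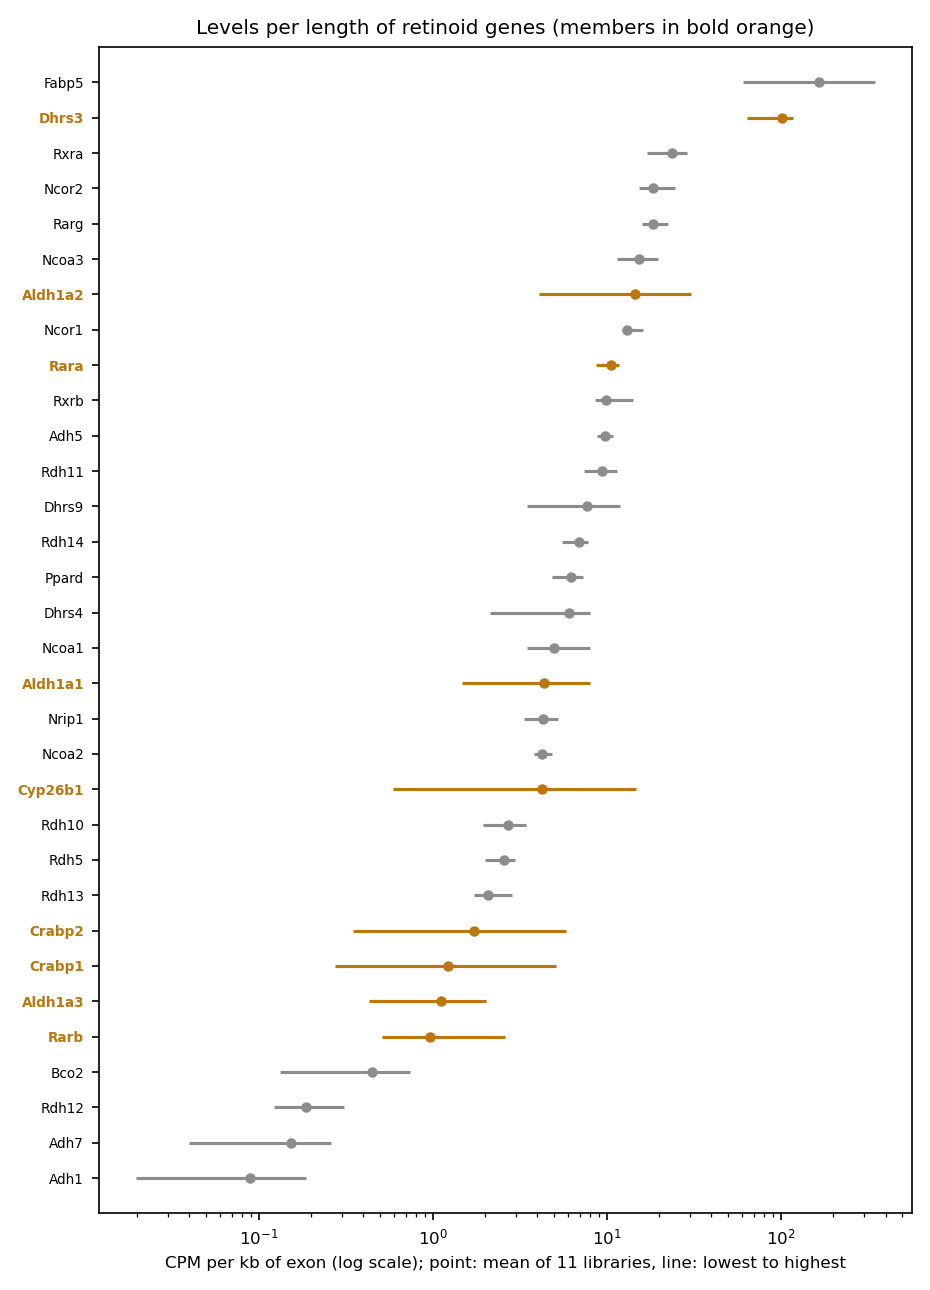
Mean CPM per kb of exon on a log axis (point) with the lowest and highest of 11 libraries (line) for the members in bold orange and, in grey, other retinoid enzymes, receptors, binding proteins and cofactors. Genes under 0.05 CPM per kb are not drawn. Dhrs3 at 101 CPM per kb is exceeded by Fabp5 alone, and the lines of Cyp26b1, Crabp1 and Crabp2 are the longest among the members.

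The members differed widely in how steady they were across mice. Rara varied least, by 1.35-fold between its highest and lowest library, and Dhrs3 by 1.81-fold. Aldh1a3, Rarb, Aldh1a1 and Aldh1a2 spanned 4.7-fold, 5.09-fold, 5.43-fold and 7.49-fold. Crabp2, Crabp1 and Cyp26b1 spanned 16.7-fold, 18.7-fold and 25.0-fold.

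Cyp26b1 was at 20.7, 14.0 and 16.7 CPM in the KO females and at 9.01, 9.50 and 3.15 CPM in the KO males. In WT it was at 18.7 and 78.8 CPM in the females and at 16.9, 29.4 and 34.0 CPM in the males. The KO males lay below every other library, and the KO females overlapped with WT female 1 and WT male 1. KO averaged 12.2 ± 6.23 CPM (SD, n = 6), WT averaged 35.6 ± 25.2 CPM (SD, n = 5), and the fitted log2 difference, KO minus WT, was −1.72 (SE 0.38). Within males it was −1.89 (SE 0.53), from 7.22 ± 3.53 against 26.8 ± 8.89 CPM (SD, n = 3 each), with no overlap. Within females it was −1.51 (SE 0.56), from 17.1 ± 3.35 CPM (SD, n = 3) against 48.8 ± 42.5 CPM (SD, n = 2).

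The female difference in Cyp26b1 rested on WT female 2. Without that library it was −0.13 (SE 0.53), while the male difference was −1.91 (SE 0.39) and that over both sexes −1.40 (SE 0.42). Without WT female 1, whose 18.7 CPM lay among the KO females, the difference over both sexes was −1.999 (SE 0.30). A test of whether the difference varied with sex gave a log2 value, males minus females, of −0.38 (SE 0.76, edgeR, adjusted p = 0.858). This estimate moved from −1.78 without WT female 2 to 0.30 without WT female 1, so its sign differed with which WT female was left out.

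Other cell markers also differed where Cyp26b1 did. The summed level of 9 pericyte and smooth muscle markers was 282 to 397 CPM in KO males and 564 to 1170 CPM in WT males, with no overlap. That of the 18 leukocyte and macrophage markers was 9040 to 14900 CPM in KO males and 6220 to 8290 CPM in WT males. In females the pericyte and smooth muscle sums were 394 to 1030 CPM in KO and 496 to 515 CPM in WT, and the leukocyte sums 9070 to 10000 and 6790 to 9320 CPM. The 14 epithelial markers summed to 12.5 to 15.1 CPM in KO males and 23.4 to 58.6 CPM in WT males, again with no overlap. In females they summed to 16.1 to 38.4 CPM in KO and 26.0 to 27.4 CPM in WT. Within males, the keratin genes Krt8, Krt18 and Krt19 were lower in KO without overlap, and the other epithelial markers overlapped. Sftpc, for example, was at 0.595 to 1.77 CPM in KO males and 0.132 to 10.2 CPM in WT males. All 9 epithelial markers that passed the filter had a negative log2 difference over both sexes. The pericyte and smooth muscle list was mixed, with 2 positive and 7 negative, and the leukocyte list had 16 positive and 2 negative. Des was the largest part of the pericyte and smooth muscle sum in males, at 175 to 258 CPM in KO and 384 to 866 CPM in WT. Notch3 of that list lay higher in KO males (56.3 to 64.9 CPM) than in WT males (30.0 to 51.6 CPM). Rgs5, Kcnj8 and Abcc9 overlapped between KO and WT males. Endothelial and mesothelial sums overlapped between KO and WT males. No marker of these lists was at or under 3 counts in every library, and their part in the Cyp26b1 difference was not tested.

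Rarb, the receptor gene with the response element shown above, was at 5.43, 2.92 and 5.13 CPM in KO females and 2.71, 3.06 and 3.37 CPM in KO males. In WT it was at 5.64 and 13.8 CPM in females and 4.15, 4.61 and 5.18 CPM in males. KO lay below WT within each sex, though by a small margin in females (5.43 against 5.64 CPM), and the genotypes overlapped once the sexes were put together. The means were 3.77 ± 1.19 CPM (SD, n = 6) and 6.67 ± 4.02 CPM (SD, n = 5). The log2 difference was −0.84 (SE 0.24, 95% interval −1.36 to −0.33), which did not pass the edgeR test over all entries (adjusted p = 0.179). DESeq2, run as an alternative, put Rarb past the threshold (−0.85, adjusted p = 0.0328), as did edgeR without WT female 1 (−0.98, adjusted p = 0.0325). Without WT female 2 the edgeR value was −0.54 (SE 0.18, adjusted p = 0.188), and the female difference went from −1.12 (SE 0.34) to −0.34 (SE 0.30). The male difference was −0.61 (SE 0.31). Up to 38.4% of the exon length of Rarb is shared with 2 genes on the opposite strand in the GRCm38 annotation. These are Top2b, a DNA topoisomerase, and Gm48162, and bases shared with both would be counted for each. Whether counting used strand is unknown, so the Rarb level is uncertain. Top2b itself was at 117 to 137 CPM in KO and 115 to 142 CPM in WT (log2 −0.04, SE 0.07, edgeR adjusted p = 0.811).

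Rara, the other receptor among the members, ran from 38.0 to 51.2 CPM in KO and from 38.2 to 51.4 CPM in WT. The ranges overlapped almost entirely. Its log2 difference was −0.03 (SE 0.10, 95% interval −0.26 to 0.20, edgeR adjusted p = 0.897).

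**Figure D2:**
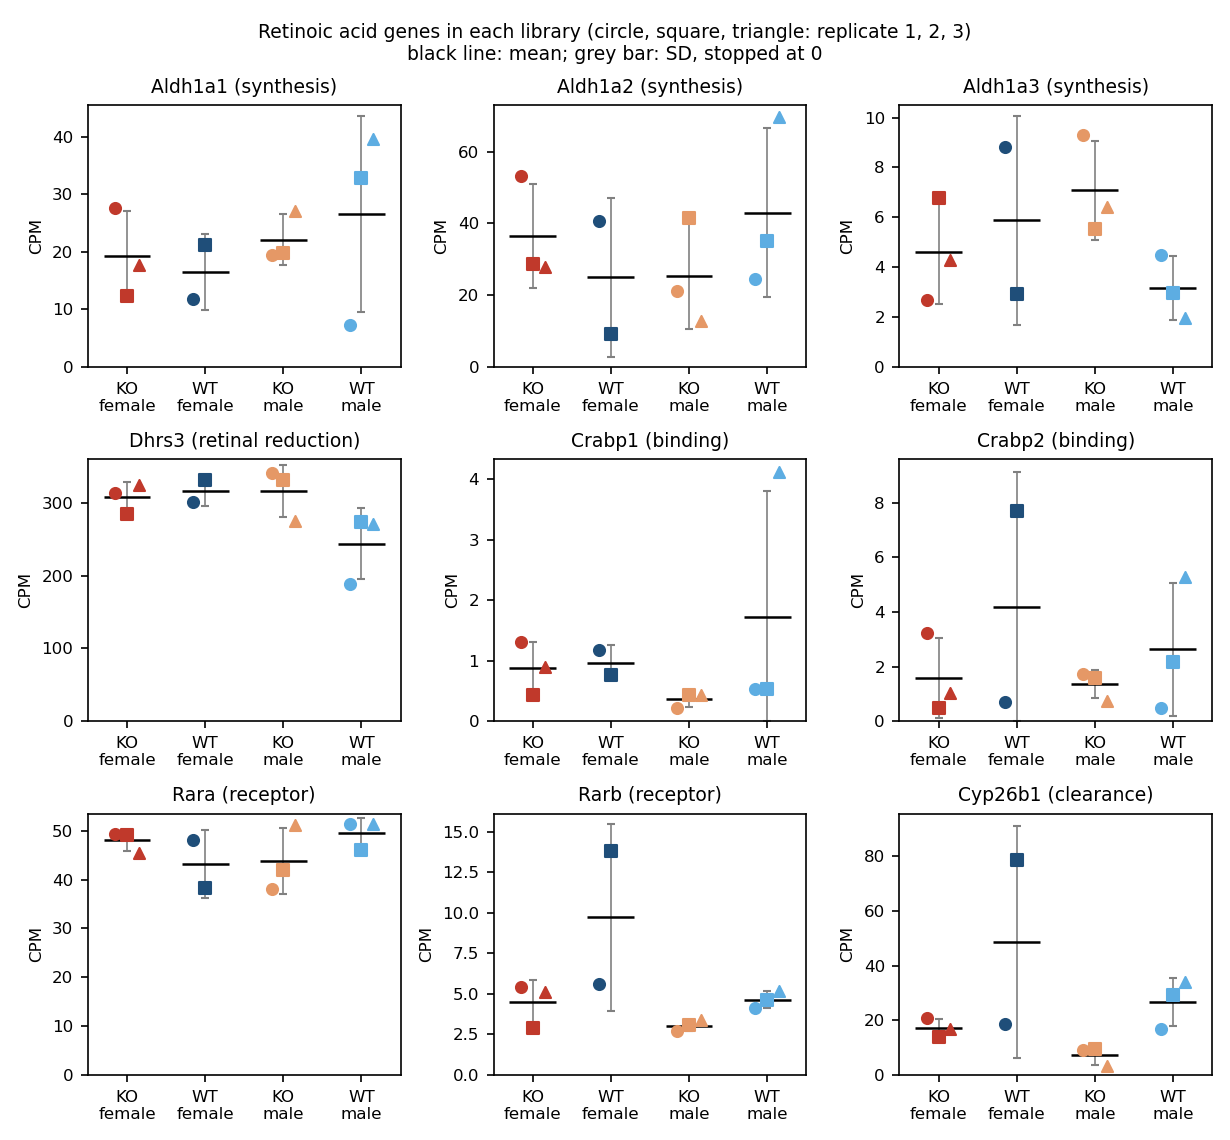
CPM of the 9 members (linear axes from 0, 1 panel each) in every library by genotype and sex, with group mean and SD. Cyp26b1 and Rarb are lower in KO males than in WT males without overlap, and WT female 2, the dark blue square, is the highest library for Crabp2, Rarb and Cyp26b1.

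Of the synthesis enzymes, Aldh1a1 was at 27.7, 12.3 and 17.8 CPM in KO females, 19.4, 19.9 and 27.2 CPM in KO males, 11.8 and 21.2 CPM in WT females and 7.30, 32.9 and 39.6 CPM in WT males. WT males held both the lowest and the highest library. The log2 difference was −0.05 (SE 0.38, 95% interval −0.88 to 0.77, edgeR adjusted p = 0.957), an interval that leaves room for a change of either sign.

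Aldh1a2, the main retinoic acid-forming enzyme of the embryo, was at 53.3, 28.7 and 27.8 CPM in KO females and 21.2, 41.6 and 12.9 CPM in KO males. It was at 40.7 and 9.27 CPM in WT females and 24.5, 35.1 and 69.5 CPM in WT males. The groups overlapped in each sex, and WT female 2, the highest library for Cyp26b1, was the lowest for Aldh1a2. The log2 difference over both sexes was −0.20 (SE 0.48, 95% interval −1.26 to 0.86, edgeR adjusted p = 0.859). It was 0.56 (SE 0.66) in females and −0.77 (SE 0.59) in males, and the difference between the sexes did not pass the test (−1.32, SE 0.89, edgeR adjusted p = 0.532). The female value was −0.15 (SE 0.67) without WT female 2 and 2.0 (SE 0.78) without WT female 1, and the difference between the sexes was −0.64 and −2.77 in the same order.

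Levels of mesothelial markers, genes of the cells that line the lung surface, were set beside those of the members. The 9 markers summed to 211 CPM in WT male 3, 146 CPM in KO female 1 and 120 CPM in WT male 2, against 15.3 to 60.3 CPM in the other 8 libraries. These 3 libraries were also the 3 highest in Aldh1a1, and 2 of them were among the 3 highest in each of Aldh1a2, Crabp1, Crabp2 and Cyp26b1. For Rara and Rarb the number was 1, and for Aldh1a3 and Dhrs3 it was 0. The match in Aldh1a1 was narrow: KO male 3, with markers at 23.0 CPM, had 27.2 CPM of Aldh1a1, against 27.7 CPM in KO female 1. None of the 9 markers was at or under 3 counts in every library, and the part of mesothelial cells in these levels was not tested.

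**Figure D3:**
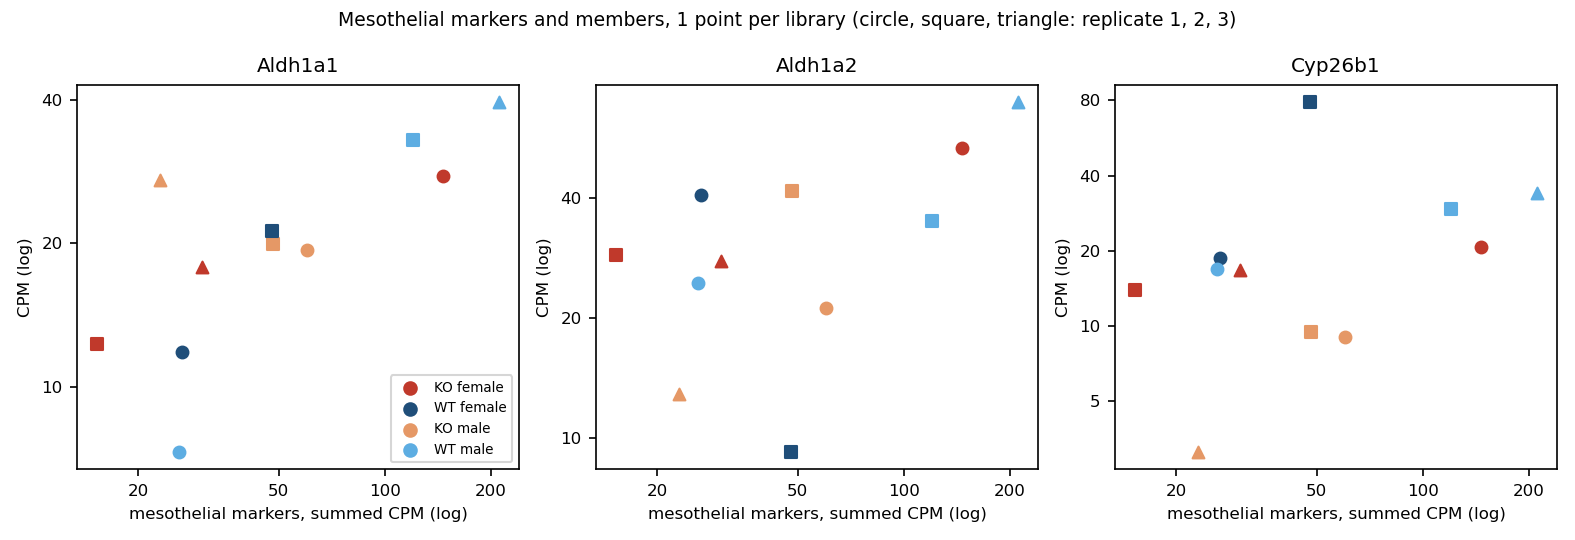
CPM of Aldh1a1, Aldh1a2 and Cyp26b1 against the summed CPM of 9 mesothelial markers, both on log axes, with 1 point per library. The 3 libraries at 120 to 211 CPM of markers are the 3 highest in Aldh1a1, while WT female 2, the dark blue square at 48.0 CPM of markers, holds the highest Cyp26b1 and the lowest Aldh1a2.

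Aldh1a3, the third enzyme, was at 2.70, 6.78 and 4.30 CPM in KO females and 9.32, 5.52 and 6.40 CPM in KO males. WT females were at 8.84 and 2.92 CPM and WT males at 4.51, 2.98 and 1.98 CPM. KO males lay above WT males without overlap, whereas the KO females fell between the 2 WT females or just below them. Over both sexes the log2 difference was 0.48 (SE 0.40, edgeR adjusted p = 0.554), made up of −0.35 (SE 0.50) in females and 1.16 (SE 0.46) in males. The difference between the sexes was 1.51 (SE 0.67), with an unadjusted edgeR p of 0.048 and an adjusted p of 0.375. It was 0.49 without WT female 1 and 2.08 without WT female 2. The female value itself changed sign, to 0.68 (SE 0.55), without WT female 1, and was −0.94 (SE 0.49) without WT female 2.

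Dhrs3, which returns retinaldehyde to retinol and so limits retinoic acid formation, was at 314, 285 and 325 CPM in KO females and 341, 332 and 275 CPM in KO males. It was at 302 and 332 CPM in WT females and 188, 274 and 271 CPM in WT males. KO males lay above WT males, by 275 against 274 CPM at the nearest, and the females overlapped. KO averaged 312 ± 26.6 CPM (SD, n = 6) against 273 ± 53.5 CPM (SD, n = 5) for WT. The log2 difference was 0.19 (SE 0.12, 95% interval −0.08 to 0.46, edgeR adjusted p = 0.449), with −0.04 (SE 0.17) in females and 0.37 (SE 0.15) in males. Without WT male 1, the lowest library, it was 0.07.

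Both binding proteins were low and set by single libraries. Crabp1 had between 10 and 156 counts per library: 1.30, 0.438 and 0.898 CPM in KO females, 0.220, 0.437 and 0.427 CPM in KO males, 1.17 and 0.762 CPM in WT females and 0.533, 0.532 and 4.12 CPM in WT males. WT male 3 was far above the rest. The log2 difference of −1.30 (SE 0.65, edgeR adjusted p = 0.327) became −0.33 (SE 0.32) without that library, and KO males still lay below WT males, by 0.437 against 0.532 CPM at the nearest.

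Crabp2, which delivers retinoic acid to the nuclear receptors, was at 3.24, 0.480 and 1.01 CPM in KO females and 1.72, 1.59 and 0.752 CPM in KO males. It was at 0.697 and 7.69 CPM in WT females and 0.461, 2.15 and 5.28 CPM in WT males. The genotypes overlapped in each sex, and 2 WT libraries, WT female 2 and WT male 3, lay above every KO library. Its log2 difference was −1.16 (SE 0.68, edgeR adjusted p = 0.393), and −0.43 (SE 0.75) without WT female 2.

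Of the 8 members other than Cyp26b1, 0 passed the edgeR threshold between KO and WT, where 0.00448% of all entries did, and 2 were positive and 6 negative. At an unadjusted p under 0.05 the count was 1 of 8 (Rarb), beside 17.2% of all entries. Their median log2 difference was −0.13, beside −0.02 over all entries tested. DESeq2 called 1 of the 8, Rarb, lower in KO, where it called 2.45% of all entries, and edgeR without WT female 1 also called Rarb alone of the 8, where 7.33% of entries passed. Nothing is read from these shares, since the set was gathered around a gene chosen from this contrast. The counts that follow are over all 9 members. Cyp26b1 is only described in them, since it was chosen for being lower in KO. Among males, 3 members lay below WT without overlap (Crabp1, Rarb and Cyp26b1), beside 13.4% of entries, and 2 lay above (Aldh1a3 and Dhrs3), beside 18.0% of entries. Among females, Rarb lay below, beside 9.73% of entries, and no member lay above, beside 9.32%. Over both sexes no member separated the genotypes, beside 0.426% of entries with KO all below WT and 0.789% all above. WT female 2 was the highest library for 3 members and the lowest for 1, and it was the highest for 26.5% and the lowest for 27.6% of all entries.

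**Figure D4:**
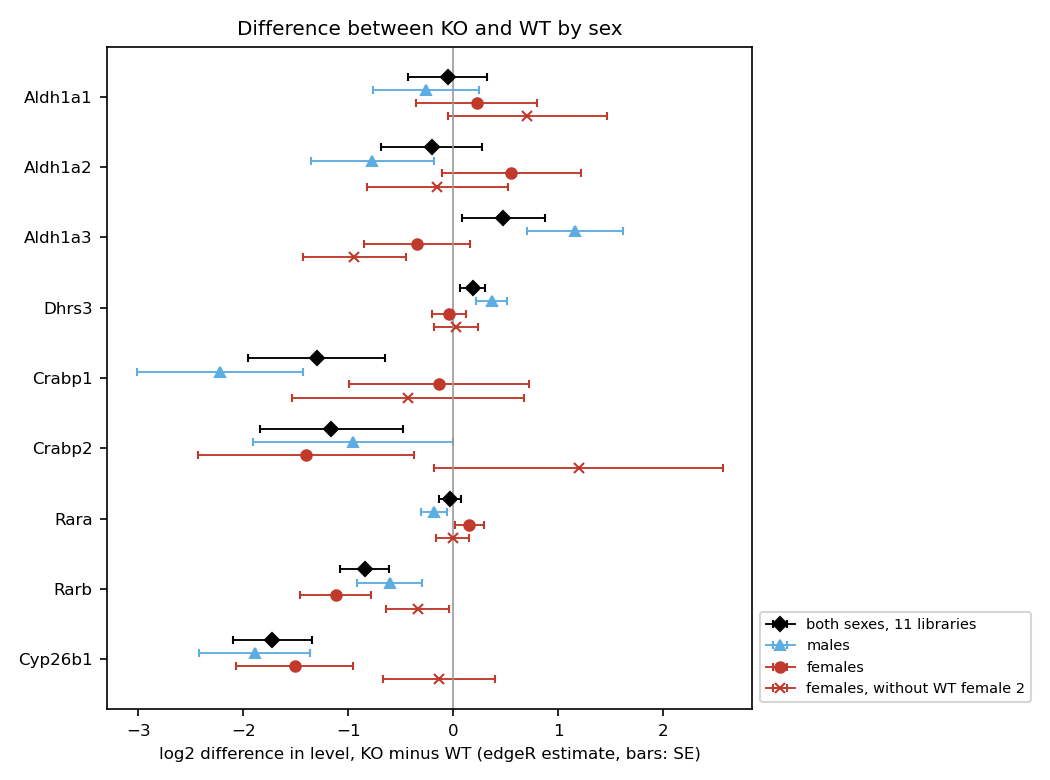
Log2 difference, KO minus WT, of each member with its SE over both sexes, within males, within females, and within females without WT female 2. For Cyp26b1 the female value moves from −1.51 to −0.13 without that library, while the male value is −1.89, and for Aldh1a3 the sexes have opposite signs, though not without WT female 1 (0.68 in females).

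Sex was compared over both genotypes, a contrast that played no part in choosing the genes. Of the 9 members 0 passed the edgeR threshold, where 4.29% of entries did (1.83% higher and 2.46% lower in males). At an unadjusted p under 0.05, 2 members differed, Rarb and Cyp26b1, beside 27.0% of entries. Cyp26b1 was lower in males by a log2 value of −1.07 (SE 0.37, 95% interval −1.89 to −0.25), with an adjusted p of 0.102 in edgeR. Within KO the 3 males (3.15 to 9.50 CPM) lay below the 3 females (14.0 to 20.7 CPM), and within WT the sexes overlapped. Rarb was at −0.79 (SE 0.24, 95% interval −1.31 to −0.28, edgeR adjusted p = 0.0679), with WT males (4.15 to 5.18 CPM) below WT females (5.64 and 13.8 CPM) and overlapping sexes in KO. DESeq2 called both lower in males (adjusted p = 0.0318 for Cyp26b1 and 0.0194 for Rarb), where it called 12.8% of entries, and so did edgeR without WT female 1 (0.0175 and 0.0244), where 14.6% of entries passed. Without WT female 2 the values were −0.73 for Cyp26b1 and −0.47 for Rarb, with edgeR adjusted p-values of 0.334 and 0.158. The other 7 members ran from −0.46 for Crabp2 to 0.42 for Aldh1a1, with edgeR adjusted p-values of at least 0.463.

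The difference between the sexes in the effect of genotype was tested for each member, and 0 of 9 passed the edgeR threshold, where 0% of entries did. At an unadjusted p under 0.05 the count was 1 of 9 members (Aldh1a3), beside 13.1% of entries. DESeq2 called 0 of 9 members, beside 0.989% of entries, and edgeR without WT female 1 called 0 of 9, beside 10.1% of entries.

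A further 58 genes of the retinoid pathway were examined as a background for the members, and 44 of them passed the filter on low counts. Between KO and WT, 0 of the 44 passed the edgeR threshold, with 20 positive, 24 negative and a median log2 difference of −0.04, beside −0.02 over all entries. Of 15 measured genes known to respond to retinoic acid, 14 were negative and 1 positive, with a median of −0.12. Over all entries tested, 11716 were negative and 10582 positive. The 15 genes were measured in the same libraries, so their signs are not independent. At an unadjusted p under 0.05 the count was 2 of 15, beside 17.2% of entries. Among the others, Tgm2, a transglutaminase, was at −0.13 (SE 0.15), the nuclear receptor genes Nr2f1 and Nr2f2 at −0.04 (SE 0.19) and −0.12 (SE 0.29), the homeobox genes Meis1 and Meis2 at −0.08 (SE 0.18) and −0.09 (SE 0.14), and the chemerin gene Rarres2 at −0.05 (SE 0.24). These values pool the sexes. For the difference between the sexes in the effect of genotype, 4 of the 15 were positive and 11 negative. An unadjusted edgeR p under 0.05 was found for 7 of the 15 and 15 of the 44, beside 13.1% of entries. Of the 44, 0 passed the threshold. Nr2f2 was at 0.59 (SE 0.34) in females and −0.65 (SE 0.30) in males, and Meis1 at 0.31 (SE 0.23) and −0.37 (SE 0.21). WT female 2 was the lowest library for both. Of 12 measured retinol and retinal enzymes, 9 were positive and 3 negative, with a median of 0.19. Rdh10, which forms retinaldehyde from retinol, was at 0.07 (SE 0.11), and Dhrs4 at 0.27 (SE 0.21). At an unadjusted p under 0.05 the count was 4 of 12, beside 17.2% of entries. These 4 are named after their values were seen: Bco2, a carotenoid-cleaving enzyme, at 0.84 (SE 0.30), Rdh11 at 0.33 (SE 0.09), Rdh5 at 0.20 (SE 0.08) and Rdh13 at −0.26 (SE 0.10). Their edgeR adjusted p-values ran from 0.179 to 0.265. Uptake and storage genes divided evenly, 3 positive and 3 negative.

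Among 11 measured receptors, binding proteins and cofactors, 7 were positive and 4 negative. At an unadjusted p under 0.05 the count was 3 of 11, beside 17.2% of entries. These were Rxra, Fabp5 and, named after its value was seen, Ncoa3 at 0.26 (SE 0.10). Rxra, the shared partner of the retinoic acid receptors, was at 131, 142 and 139 CPM in KO females, 159, 151 and 128 CPM in KO males, 136 and 108 CPM in WT females and 117, 112 and 92.9 CPM in WT males. KO males lay above WT males and the females overlapped. Its log2 difference was 0.32 (SE 0.10, edgeR adjusted p = 0.184). Over single omissions it ran from 0.26 without KO male 1 to 0.42 without WT female 1. Rarg was at −0.20 (SE 0.09, edgeR adjusted p = 0.292). Fabp5 was at 1240, 870 and 638 CPM in KO males and 217, 440 and 296 CPM in WT males, without overlap, and at 458 to 675 CPM in KO females and 533 and 566 CPM in WT females. Its log2 difference was 1.53 (SE 0.29) in males and 0.06 (SE 0.31) in females, and the difference between the sexes missed the threshold (1.46, SE 0.42, edgeR adjusted p = 0.294). Rbp4, the serum retinol carrier, was at 4.65, 4.26 and 4.98 CPM in KO males and 0.897, 3.02 and 1.88 CPM in WT males, but at 2.06, 2.98 and 3.07 CPM in KO females and 3.52 and 9.29 CPM in WT females. KO lay above WT in males and below WT in females without overlap, and the difference between the sexes was 2.51 (SE 0.61, edgeR adjusted p = 0.294). The female value of −1.25 (SE 0.45) was −0.39 (SE 0.47) without WT female 2, and the male value was 1.25 (SE 0.42).

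Between the sexes, 3 of the 44 pathway genes passed the edgeR threshold, a share near the 4.29% of all entries that did, so the count says nothing particular of the pathway. Tgm2 was lower in males (log2 −0.79, SE 0.15, adjusted p = 0.0282), at 150 to 265 CPM in the 6 males and 282 to 425 CPM in the 5 females, with no overlap. This call did not hold when KO female 1 or 3, KO male 2 or 3, WT male 2 or WT female 2 was omitted, with values of −0.70 to −0.86 over all single omissions. The other two are named after their values were seen. Dhrs9, a retinol dehydrogenase, was higher in males (1.07, SE 0.12, edgeR adjusted p = 0.00258), at 37.0 to 51.4 CPM against 15.0 to 25.6 CPM in females. Lpl, lipoprotein lipase, was lower in males (−1.10, SE 0.26, edgeR adjusted p = 0.0457), and this call was lost in 10 of the 11 single omissions, the exception being WT female 1, with values of −0.78 to −1.26.

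The genes whose log2 levels followed Cyp26b1 most closely over the 11 libraries, among 11847 genes averaging at least 1 on the log2 CPM scale, were Chst11, a chondroitin sulfotransferase (Pearson r = 0.901), Zc3h7a, a zinc finger gene (0.890), the cytokine gene Lif (0.887), the interleukin-1 receptor kinase gene Irak2 (0.883) and the transcription factor gene Tcf7 (0.882). These are descriptions over libraries that share genotype, sex and library effects. With group means removed, r was 0.681 for Chst11, 0.733 for Zc3h7a, 0.864 for Lif, 0.912 for Irak2 and 0.706 for Tcf7. Chst11 was at 53.2 to 97.6 CPM in KO and 85.1 to 109 CPM in WT, and Lif at 7.62 to 16.9 CPM in KO and 11 to 23.3 CPM in WT. Both were lowest in KO male 3 and highest in WT female 2, as was Cyp26b1. Of the members, Rarb came closest to Cyp26b1 (r = 0.803, rank 78) and Aldh1a3 was the most opposed (−0.652). With group means removed the order differed: Crabp2 (0.850), Dhrs3 (0.717) and Rarb (0.602) were the closest members, and Rara (−0.827) and Aldh1a3 (−0.662) the most opposed. Removing the mean of only 2 WT females leaves them equal and opposite deviations. Without WT female 2, and with group means kept, Aldh1a2 went from 0.096 to 0.804 and was the closest member. Rarb went from 0.803 to 0.654 and Crabp2 from 0.640 to 0.440, and Aldh1a3 was still the most opposed (−0.628).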

How the data were processed

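Raw counts, whole numbers with no normalization, were deposited by the authors as 1 table for each library, for 58223 entries (56980 Ensembl genes and 1243 repeat subfamilies). The submitters' processing notes name Trim Galore, STAR and the GRCm39 build. For tool versions, the counting program, its strand setting and the annotation, nothing was given in the sources used here. Symbols came from GENCODE vM21 (GRCm38), which named 52073 genes and gave exon lengths, chromosomes and overlaps. Because the builds differ, no coordinates are printed other than those of the RefSeq promoter windows, in their own build.

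Counts were tested here with edgeR 4.0.16 in R 4.3.3 (quasi-likelihood F-test, filterByExpr with a minimum count of 10, TMM factors of 0.951 to 1.04). KO against WT and males against females came from a model with sex and genotype over all 11 libraries (8 residual degrees of freedom, 22298 entries). The within-sex values and the difference between the sexes came from a model with 4 group means (7 degrees of freedom, 22960 entries). P-values were adjusted by Benjamini-Hochberg over all entries, called under 0.05. Errors are SD for CPM and SE for log2 differences. Each library is a separate mouse. No libraries held identical counts, and those of 1 group differed beyond sampling noise (chi-square per degree of freedom 12 to 144). A count of 0 allows up to 3 counts, or 0.061 to 0.112 CPM, for counting error only. The procedure was tested on simulated data. Alternatives were DESeq2 1.42.0, RLE size factors, no filter, genes without repeats, the replicate number as a block, and leaving out each library.

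The members and the pathway and marker lists were chosen with earlier results of these data known. The text names the 9 members, Cgas, fixed pathway genes, not all of which are reported here, and the 5 genes most correlated with Cyp26b1. The pathway genes that passed a threshold are named in addition. Endothelial markers summed to 41.0 to 110 CPM.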

Additional observations from a re-analysis of the deposited data

Results flagged for a closer look

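Of 18 groups of values (9 members in each genotype), 3 held a library far from the others by Dixon's 95% limit. That limit marks about 1 in 20 by chance. The Cyp26b1 values were used to choose that gene, so the count of 3 is a description and is not set against chance. All 3 were in WT, where 11.7% of all entries were marked in the same way, 76.4% of them at WT female 2, and in KO 5.04% were. Crabp1 was at 4.12 CPM in WT male 3, Rarb at 13.8 CPM in WT female 2 and Cyp26b1 at 78.8 CPM in WT female 2. The gap to the nearest library was 0.822, 0.846 and 0.724 of the whole range.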

How the results depend on the processing

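The number of entries past the threshold between KO and WT was 1, and became 546 with DESeq2, 3 with no filter on low counts, and 1 to 1678 when each library was left out in turn, the highest without WT female 1. The difference between the sexes in the genotype effect had 0 calls (3016 at an unadjusted p under 0.05), 227 with DESeq2, 2 with no filter, and 0 to 2435 over single omissions, again highest without WT female 1. Males against females had 956 calls, 2845 with DESeq2, 602 with genes alone, and 104 (without KO male 2) to 3340 (without WT female 1). With the replicate block the counts were 0 for KO against WT, 0 for the difference between the sexes and 237 for sex. The Cgas call was lost there (adjusted p = 0.074), as was that of Lpl between the sexes (adjusted p = 0.0665). Deviations from the group means gave r of −0.15 to 0.07 for the 5 pairs of same-numbered KO and WT libraries of a sex. Pairs with other numbers gave −0.24 to 0.19, and same-numbered females and males of 1 genotype gave −0.08 to 0.21. So few pairs cannot decide whether the number marks a pairing.

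Of 432 member values under 16 alternatives and 3 contrasts, 396 kept their sign and side of the threshold, 6 passed it and 30 changed sign; the cause was not tested. Cyp26b1 between genotypes carries no test and was counted as kept where it moved by less than its SE, as it did in all 16. With the block, Aldh1a1 between genotypes was 0.093, and Aldh1a2, Aldh1a3 and Rara between sexes were −0.19, 0.21 and −0.015; Rara was −0.008 with genes alone. Over single omissions, KO minus WT ran from −0.28 to 0.18 for Aldh1a1, −0.59 to 0.15 for Aldh1a2 and −0.14 to 0.018 for Rara. The difference between the sexes ran from −2.17 to 1.61 for Crabp2, −0.29 to 1.01 for Rarb and −1.78 to 0.30 for Cyp26b1. Males minus females ran from −0.35 to 0.30 for Aldh1a2, −0.28 to 0.46 for Aldh1a3, −1.09 to 0.089 for Crabp1, −0.84 to 0.32 for Crabp2 and −0.081 to 0.079 for Rara. Depth limits Crabp1 most, at 10 to 58 counts in 10 of 11 libraries.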
